A study of Mus musculus with 12 samples.

Results

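C1qa, C1qb, C1qc, Mrc1, Cd14, Csf1r, Apoe, Selenop, Lyz2 and Cxcl2 are 10 genes that tissue macrophages use for complement, uptake, lipid transport and microbial sensing, and they were followed across 12 RNA libraries of sorted mouse invariant natural killer T (iNKT) cells. They were taken by symbol from a table of 24781 genes, and all 10 symbols were found. The choice rested on their high values in lung CD244+ cells against lung CD244- cells, so that difference is described here and not tested. Among the 5138 genes with a value above 1 in at least 3 libraries, all 10 were present, but only 1 of them, Selenop, would have been there without the lung CD244+ libraries.

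The groups were lung CD244+, lung CD244-, thymus CD244+ and thymus CD244- cells, with 3 libraries each and 100 sorted cells per library. Mice were 6 weeks old, and strain, sex and any treatment were not given in the sources used here. Every group went through the same gate on TCRbeta, NK1.1, the CD1d tetramer and CXCR6, and only the sort on CD244, a receptor of natural killer (NK) cells and some T cells, separated the subsets within a tissue. The replicates were separate library preparations, and no animal was named for any of them, so spreads and p-values cover the variation between libraries, which may be technical.

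Macrophages clear dying cells and microbes from tissue and depend on signals through the CSF1 receptor. C1q, built from the products of C1qa, C1qb and C1qc, is the recognition unit of the classical complement pathway, and macrophages are a main source of it. The lung holds alveolar macrophages in the airspaces and interstitial macrophages in the tissue around them.

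The 3 C1q genes lie side by side on the minus strand of chromosome 4 within 18675 bases (mm10, GENCODE M21), in the order C1qb (ENSMUSG00000036905, 136880129 to 136886187), C1qc (ENSMUSG00000036896, 136889804 to 136893065) and C1qa (ENSMUSG00000036887, 136895917 to 136898803), with no other annotated gene in the span. RefSeq (GRCm38.p6) windows of 250 bases before to 50 bases after a transcription start were searched for 7 of the 10 genes, with 11 starts. The letters GAGGAA, the core recognised by the myeloid factor PU.1, were searched on both strands, where the other strand reads TTCCTC. They occurred in 8 of the 11 windows, against 28.3% of all 32851 windows. Windows of neighbouring starts of Apoe and of Selenop overlap, and 1 site of Selenop was counted at 2 starts. The upstream stretches of C1qb, C1qc and Mrc1 are shown because these genes carried those letters, which are in capitals, and because their RNA had the same group pattern. C1qb has them at -30, C1qc at -193, and Mrc1 at -180, -167 and -35 from the RefSeq start.
C1qb, chr4:136886201-136886450, minus strand: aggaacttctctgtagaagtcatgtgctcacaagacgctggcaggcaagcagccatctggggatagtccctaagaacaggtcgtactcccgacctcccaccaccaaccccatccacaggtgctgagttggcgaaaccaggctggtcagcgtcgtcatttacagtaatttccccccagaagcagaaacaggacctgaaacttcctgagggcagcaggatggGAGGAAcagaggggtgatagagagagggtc
C1qc, chr4:136893066-136893164, minus strand: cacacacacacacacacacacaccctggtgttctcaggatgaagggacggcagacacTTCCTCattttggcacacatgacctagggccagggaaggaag
Mrc1, chr2:14229164-14229391, plus strand: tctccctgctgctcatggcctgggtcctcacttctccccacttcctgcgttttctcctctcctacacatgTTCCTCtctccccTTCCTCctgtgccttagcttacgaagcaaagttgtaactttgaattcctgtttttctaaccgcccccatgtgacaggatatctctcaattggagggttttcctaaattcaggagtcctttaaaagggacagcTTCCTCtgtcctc

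Cxcl2 stands apart among the 10 as an inducible chemokine, and its upstream stretch is shown for the letters GGGNNNNNCC, a loose form of the NF-kB site, in capitals. They lie at -97, -96 and -78, of which the first and second overlap.
Cxcl2, chr5:90903649-90903870, plus strand: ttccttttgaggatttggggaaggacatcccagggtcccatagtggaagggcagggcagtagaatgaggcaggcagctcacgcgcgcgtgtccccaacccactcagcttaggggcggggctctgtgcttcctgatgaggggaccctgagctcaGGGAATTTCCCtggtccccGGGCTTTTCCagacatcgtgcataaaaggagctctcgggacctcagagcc
The NF-kB letters were found in 6 of the 11 windows, against 50.8% of all windows. The TATA box letters TATAAA were at 2 of 11 starts (13.6% of all windows). The AP-1 letters TGANTCA were at 0 of 11 (7.81%), and the C/EBP letters TTGCNNAA at 0 of 11 (10.8%). All of these were searched on both strands. A match describes letters and is not a measured binding site.

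Levels below are molecules per 10000, that is, a gene's recovered molecules for every 10000 molecules of its library. Libraries held 42520 to 51436 molecules in lung CD244+ cells, 29696 to 32196 in lung CD244- cells, 56615 to 71789 in thymus CD244+ cells and 60120 to 67478 in thymus CD244- cells. Where a group had none of a gene, its level is bounded by 3 molecules over its 3 libraries, which is 0.21, 0.326, 0.156 and 0.154 molecules per 10000 for the groups in that order, and such bounds cover counting error only. Cd244 gave 1, 1 and 0 molecules in lung CD244+ libraries against 0 in each lung CD244- library, and 8, 1 and 4 in thymus CD244+ libraries against 0 in each thymus CD244- library. The 4 genes of the T cell receptor complex (Cd3d, Cd3e, Cd3g and Cd247) summed to 7.44 ± 2.95 molecules per 10000 in lung CD244+ cells, 13.5 ± 1.79 in lung CD244- cells, 15.3 ± 1.26 in thymus CD244+ cells and 16.9 ± 0.435 in thymus CD244- cells (SD, n = 3 each). T cell receptor RNA was thus present in all groups and lowest in the libraries that carried the macrophage genes. In RNA from 100 pooled cells, fewer cells of a type and less RNA per cell cannot be told apart.

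All 10 genes were detected in each of the 3 lung CD244+ libraries, with 1536 molecules in all. The 3 lung CD244- libraries held 9 molecules of the 10 genes, the thymus CD244+ libraries 2, and the thymus CD244- libraries 7. Summed, the 10 genes reached 72.1, 144 and 111 molecules per 10000 in lung CD244+ libraries 1, 2 and 3, against 0.337, 1.66 and 0.932 in the lung CD244- libraries. Their mean was 109 ± 36.2 in lung CD244+ cells, 0.976 ± 0.662 in lung CD244- cells, 0.0929 ± 0.161 in thymus CD244+ cells and 0.354 ± 0.222 in thymus CD244- cells (SD, n = 3 each). By pooled molecules the sum was 110-fold higher in lung CD244+ than in lung CD244- cells (95% counting interval 57.8 to 241), 1032-fold higher than in thymus CD244+ cells (285 to 8526) and 299-fold higher than in thymus CD244- cells (145 to 744). Relative to each library's T cell receptor complex, the lung ratio of group means was 246, against 112 per library total.

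For all 10 genes the 3 lung CD244+ values lay above the 3 lung CD244- values, as did those of 11.6% of the 5138 tested genes. For 7 of the 10 there was no molecule in any lung CD244- library and at least 1 in each lung CD244+ library, a pattern shared by 3.11% of tested genes. The 10 were chosen on this contrast, so their counts describe the choice.

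**Figure D1:**
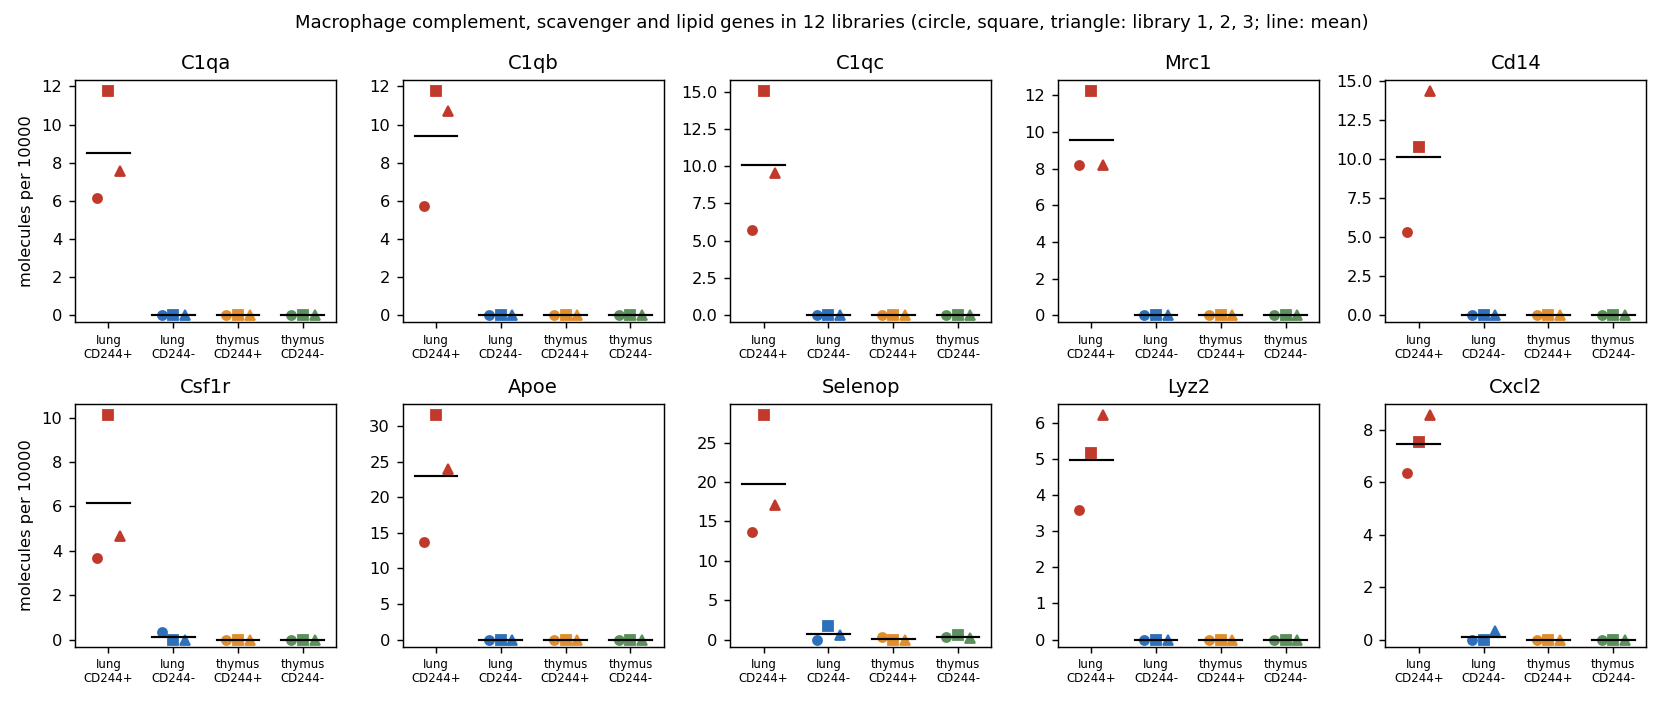
Molecules per 10000 (vertical axes, linear, each gene with its own scale) of the 10 genes in lung CD244+, lung CD244-, thymus CD244+ and thymus CD244- libraries; circle, square and triangle are libraries 1, 2 and 3 and the line is the group mean. Only the lung CD244+ libraries stand off the baseline in all 10 panels, and only Selenop has molecules in more than 1 other group.

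The 3 chains of C1q were detected in lung CD244+ cells alone. C1qa, the A chain, had 30, 50 and 39 molecules in lung CD244+ libraries 1, 2 and 3, or 8.49 ± 2.92 per 10000. C1qb, the B chain, had 28, 50 and 55 molecules, or 9.39 ± 3.22 per 10000. C1qc, the C chain, had 28, 64 and 49 molecules, or 10.1 ± 4.69 per 10000 (SD, n = 3 each). None of the 3 chains had a molecule in any of the other 9 libraries, so the groups did not overlap. Against lung CD244- cells, lung CD244+ cells were at least 25.6-fold higher for C1qa, at least 28.6-fold for C1qb and at least 30.3-fold for C1qc. Against thymus CD244+ cells the bounds were 53.3, 59.6 and 63.1 in the same gene order, and against thymus CD244- cells 54.0, 60.4 and 64.0. The chains summed to 17.6, 38.6 and 27.8 molecules per 10000 in lung CD244+ libraries 1, 2 and 3. They made up 24.4%, 26.7% and 25.1% of the molecules of the 10 genes in those libraries, with exact 95% binomial intervals of 20.0% to 29.3%, 23.2% to 30.4% and 21.6% to 28.9%. The share of the C1q chains among the 10 genes thus differed by less than counting error between libraries whose levels differed.

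Mrc1, the mannose receptor, takes up glycoproteins and microbes and lies on chromosome 2 (ENSMUSG00000026712, plus strand, 14229392 to 14332057), with the microRNA gene Mir511 inside it. It had 40, 52 and 42 molecules in lung CD244+ libraries 1, 2 and 3 and none elsewhere, a mean of 9.53 ± 2.34 per 10000 (SD, n = 3). That was at least 28.8-fold above lung CD244- cells, at least 60-fold above thymus CD244+ cells and at least 60.8-fold above thymus CD244- cells. Cd14 encodes the coreceptor that hands lipopolysaccharide to Toll-like receptor 4 (chromosome 18, minus strand, 36725067 to 36726798). It had 26, 46 and 74 molecules and none elsewhere, with a mean of 10.2 ± 4.57 per 10000 in lung CD244+ cells, at least 31.4-fold above lung CD244- cells. The thymus bounds were at least 65.4-fold above CD244+ and at least 66.3-fold above CD244- cells. Csf1r, the receptor for the growth factors CSF1 and IL-34 (chromosome 18, plus strand, 61100598 to 61132149), had 18, 43 and 24 molecules in lung CD244+ libraries and a single one in lung CD244- library 1. It averaged 6.15 ± 3.46 per 10000 in lung CD244+ and 0.112 ± 0.194 in lung CD244- cells (SD, n = 3 each), a ratio of 54.8 with a counting interval of 9.57 to 2189. With no Csf1r molecule in thymus, the bounds there were at least 38.1-fold above CD244+ and 38.6-fold above CD244- cells. The lowest lung CD244+ value of each receptor was above every value of the other groups. Csf1r overlaps Hmgxb3 on the opposite strand, and no source used here states whether counting used strand. Reads from the stretch that the 2 genes share may therefore not be told apart.

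Apoe encodes the carrier of cholesterol that macrophages secrete (chromosome 7, minus strand, 19696109 to 19699188). It had 67, 134 and 123 molecules in lung CD244+ libraries 1, 2 and 3 and none in the other 9 libraries, a mean of 23.1 ± 8.93 per 10000 (SD, n = 3). Lung CD244+ cells were at least 69.6-fold above lung CD244- cells, at least 145-fold above thymus CD244+ and at least 147-fold above thymus CD244- cells. Without Apoe, the sum of the other 9 genes was 58.3, 113 and 86.9 per 10000 in the lung CD244+ libraries. Those genes were chosen for high values there as well, so this sum describes the choice.

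Selenop encodes selenoprotein P, a secreted carrier of selenium (chromosome 15, plus strand, 3268547 to 3280508), and was the only one of the 10 seen in thymus. It had 66.5, 121 and 88 molecules in lung CD244+ libraries against 0, 5 and 2 in lung CD244- libraries, and 2, 0 and 0 in thymus CD244+ libraries against 2, 4 and 1 in thymus CD244- libraries. The lung CD244+ values did not overlap with any other group, whereas the other 3 groups overlapped with one another. The means were 19.7 ± 7.76 per 10000 in lung CD244+ cells, 0.760 ± 0.838 in lung CD244- cells, 0.0929 ± 0.161 in thymus CD244+ cells and 0.354 ± 0.222 in thymus CD244- cells (SD, n = 3 each). Pooled, Selenop was 25.4-fold higher in lung CD244+ than in lung CD244- cells (counting interval 12.2 to 63.8), 185-fold higher than in thymus CD244+ cells (50.8 to 1538) and 53.7-fold higher than in thymus CD244- cells (25.7 to 135). Ccdc152, which overlaps Selenop on the opposite strand, was listed at 0 in all 12 libraries.

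Lyz2 encodes lysozyme, which cuts bacterial cell walls (chromosome 10, minus strand, 117277331 to 117282321). It had 17.5, 22 and 32 molecules in lung CD244+ libraries and none elsewhere, a mean of 4.99 ± 1.33 per 10000 (SD, n = 3) and at least 15.4-fold above lung CD244- cells. The bounds were at least 32.0-fold above thymus CD244+ and 32.5-fold above thymus CD244- cells. Its near-identical neighbour Lyz1 had 6.5, 5 and 17 molecules in the same libraries and none elsewhere. Fractional values show that reads were shared between genes, so the division between Lyz2 and Lyz1 is uncertain. Cxcl2, a chemokine that attracts neutrophils (chromosome 5, plus strand, 90903871 to 90905938), had 31, 32 and 44 molecules in lung CD244+ libraries and 1 in lung CD244- library 3. Its mean was 7.48 ± 1.11 per 10000 in lung CD244+ cells and 0.104 ± 0.179 in lung CD244- cells (SD, n = 3 each), a ratio of 69.0 with a counting interval of 12.1 to 2749. No Cxcl2 molecule was found in thymus, which bounds lung CD244+ cells at least 47.9-fold above thymus CD244+ and 48.6-fold above thymus CD244- cells. Both genes were present in every lung CD244+ library above all values elsewhere.

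In thymus, only Selenop could be compared between the CD244 subsets. The other 9 genes had no molecule there and entered the fit through the lung CD244+ libraries, so that their being past no threshold was fixed beforehand. Over all tested genes, limma called 0.409% at an adjusted p of 0.05 and 5.94% had an unadjusted p under 0.05, and edgeR on the 9 libraries in which molecules could be recovered whole gave 1.12% and 7.53% of 1156 genes. Selenop was not among them by either tool. Its log2 difference, thymus CD244+ minus thymus CD244-, was -0.65 ± 0.39 (SE, limma adjusted p = 0.949, between 0.666 and 1.0 over the other settings). At this depth a level under 0.156 molecules per 10000 in thymus CD244+ cells or 0.154 in thymus CD244- cells could have been missed.

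Levels differed among the 3 lung CD244+ libraries. By level, library 2 was highest for 7 genes (C1qa, C1qb, C1qc, Mrc1, Csf1r, Apoe and Selenop), library 3 was highest for Cd14, Lyz2 and Cxcl2, and library 1 was highest for 0. The sum of the 10 genes in library 2 was 2.004 times that in library 1 (counting interval 1.76 to 2.29), and library 3 was at 1.54 times library 1 (1.34 to 1.76). Library 2 exceeded library 1 beyond counting error for C1qa (1.92, 1.19 to 3.12), C1qb (2.05, 1.27 to 3.39), C1qc (2.63, 1.66 to 4.25), Cd14 (2.03, 1.23 to 3.43), Csf1r (2.75, 1.55 to 5.06), Apoe (2.30, 1.70 to 3.13) and Selenop (2.11, 1.55 to 2.89). The interval included equality for Mrc1 (1.49, 0.970 to 2.32), Lyz2 (1.40, 0.719 to 2.78) and Cxcl2 (1.19, 0.701 to 2.01). Cxcl2 had the smallest spread of the 10 in these libraries (coefficient of variation 14.8%) and Csf1r the largest (56.3%).

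The genes did not keep fixed proportions. Cd14 made up 7.39%, 7.49% and 13% of the molecules of the 10 genes in lung CD244+ libraries 1, 2 and 3, whereas Mrc1 made up 11.4%, 8.47% and 7.37%. Cd14 in library 3 was 2.70 times its level in library 1 (1.71 to 4.41), while Mrc1 was at 0.997 (0.631 to 1.58). Csf1r in library 3 was at 0.461 times library 2 (0.268 to 0.778), and Selenop at 0.601 (0.452 to 0.798). Cd14 was at 1.33 times library 2 (0.908 to 1.97). Library 2 was thus the richest in Csf1r, Apoe and Selenop RNA per total, and library 3 had the largest share of Cd14.

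**Figure D2:**
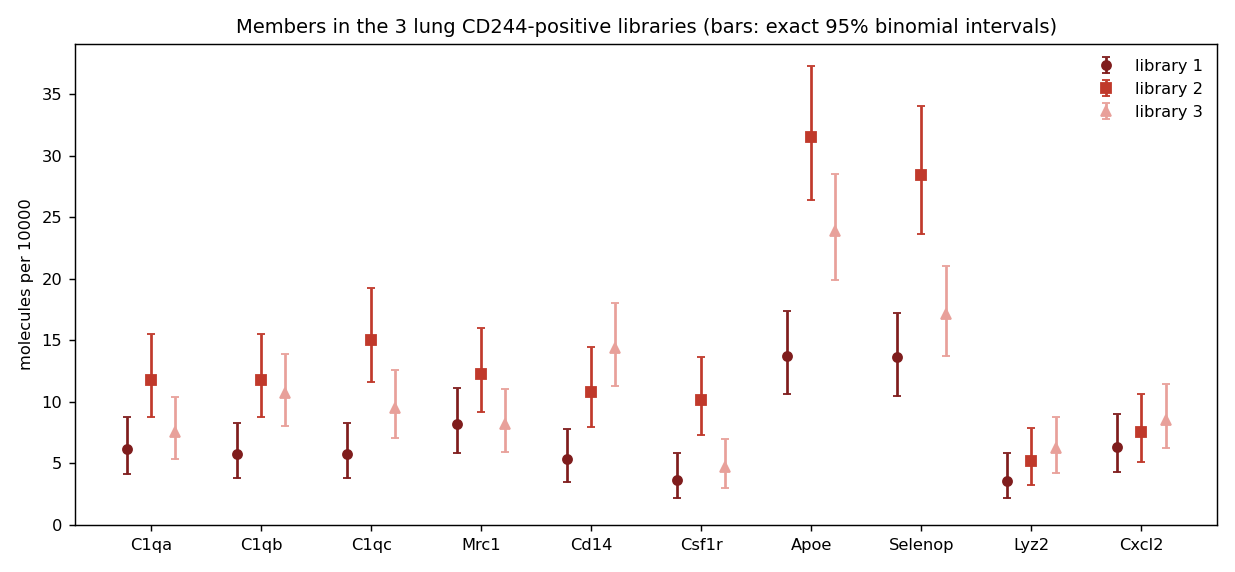
Molecules per 10000 (vertical axis, linear) of the 10 genes in lung CD244+ libraries 1, 2 and 3, with exact 95% binomial intervals as bars, which cover counting error only. Library 1 is lowest for every gene except Mrc1, where libraries 1 and 3 are level, and Apoe and Selenop in library 2 reach 31.5 and 28.5.

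Other genes of the same pathways were described from 18 lists with 252 distinct genes, 250 of them in the table and 123 tested. In lung CD244+ against lung CD244- cells, limma called 288 of 5138 genes higher (5.61%) and 145 lower (2.82%), or 1320 and 30 of 5854 genes above the filter per T cell receptor complex, and among the 123 list genes 68 were higher and 6 lower. Of those 68, only 16 passed the filter on low values without the lung CD244+ libraries, so the others had to be high there to be tested. Some genes, such as C3ar1, Cd68, Cd163, Lrp1 and Irf8, are shared between lists and counted in each, so the counts per list are not separate. The lists were drawn up with results of these data known and share this contrast with the choice of the 10 genes, so their counts are no independent evidence of direction. The median log2 difference of all tested genes was -0.01.

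Most other macrophage genes that could be tested rose. Of 20 listed, 16 were tested, 15 rose in lung CD244+ cells and 0 fell, with a median log2 difference of 2.61. Mertk (2, 3 and 1 molecules in lung CD244+ libraries), Fcgr1 (2, 2 and 3), Ms4a7 (1, 6 and 11) and Cd63 (2, 7 and 8) were below the filter. Fcgr3, an Fc receptor for antibody-coated particles, had 18, 13 and 22 molecules in lung CD244+ libraries against 0 in each lung CD244- library (log2 difference 3.01 ± 0.39 SE, limma adjusted p = 2.20e-09, at least 11.4-fold). Ctss, a lysosomal protease of antigen processing, had 19, 31 and 55 molecules against 0, 2 and 0 (3.42 ± 0.39, adjusted p = 2.40e-11). Pf4, a chemokine made by platelets and some tissue macrophages, had 23, 36 and 14 against none (3.37 ± 0.39, adjusted p = 6.14e-11), and the lysosomal protease gene Lgmn 12, 17 and 15 against none (2.79 ± 0.38, adjusted p = 1.42e-08). The 1 tested gene that did not pass was Maf, a transcription factor also used by T cells, with 23, 36 and 14 molecules in lung CD244+ and 8, 13 and 8 in lung CD244- libraries (adjusted p = 0.293). The list summed to 39.4, 71.6 and 52.0 molecules per 10000 in lung CD244+ libraries, with group means of 54.3 ± 16.2 there, 3.82 ± 1.58 in lung CD244- cells, 3.67 ± 1.48 in thymus CD244+ cells and 5.18 ± 1.16 in thymus CD244- cells (SD, n = 3 each).

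Beyond C1q, 21 complement genes were listed and 9 tested, of which 5 rose and 0 fell (median log2 difference 1.46). C3ar1, the receptor for the C3a fragment, had 9, 18 and 16 molecules in lung CD244+ libraries against none in lung CD244- libraries (2.73 ± 0.39 SE, limma adjusted p = 3.60e-08). C5ar1, the C5a receptor, had 4, 14 and 6 against none (1.99 ± 0.39, adjusted p = 0.0001005). Itgam, a chain of complement receptor 3, had 3, 5 and 10 against none (1.70 ± 0.39, adjusted p = 0.000965). Cfp, which stabilises the alternative pathway convertase, also rose. Itgb2, Cr1l, C1qbp and Calr did not pass, and C2, Cfd, C1s1, Cd59a and Serping1 were at 0 in all 12 libraries.

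Scavenger receptors other than Mrc1 followed the same direction, with 7 of 8 tested genes higher and 0 lower among 18 listed (median 2.02). Cd36, a receptor for oxidised lipoproteins and long-chain fatty acids, had 4, 16 and 15 molecules in lung CD244+ libraries against none in lung CD244- libraries (2.38 ± 0.40 SE, limma adjusted p = 2.82e-06). Clec7a, the receptor for fungal beta-glucan, had 15, 17 and 31 against 0, 2 and 0 (2.80 ± 0.40, adjusted p = 3.62e-08). Cd68, a lysosomal protein of macrophages, had 7, 7 and 16 against none (2.26 ± 0.39, adjusted p = 5.52e-06). Cd163, the haemoglobin-haptoglobin receptor, had 17, 5 and 4 against none (2.0 ± 0.40, adjusted p = 9.98e-05), so its highest library was the one lowest for most of the 10 genes. Stab1, Axl and Lrp1 also rose, and Scarb2 did not pass.

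Lipid genes were higher in part. Of 22 listed beside Apoe, 14 were tested, 6 rose, 0 fell and 8 did not pass (median 0.91). Abca1, which exports cholesterol, had 10, 10 and 8 molecules in lung CD244+ libraries against 0, 1 and 0 in lung CD244- libraries (2.02 ± 0.40 SE, limma adjusted p = 7.76e-05), and Pltp, which transfers phospholipid between lipoproteins, 4, 12 and 16 against none (2.29 ± 0.39, adjusted p = 5.88e-06). Lrp1, an endocytic receptor for ApoE-bearing particles, had 3, 4 and 11 against none (1.66 ± 0.39, adjusted p = 0.00136). Psap, a precursor of lysosomal lipid-degrading cofactors, was present in both subsets, with 26, 28 and 54 against 6, 5 and 10 (1.504 ± 0.31, adjusted p = 0.000213). Npc2 and Plin2 also rose. Apoc1 was at 0 in all 12 libraries.

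Around Cd14, 2 of 6 tested genes of the Toll-like receptor chain rose, of 13 listed. Tlr2 had 16, 7 and 17 molecules in lung CD244+ libraries against none in lung CD244- libraries (2.61 ± 0.39 SE, limma adjusted p = 1.40e-07). Nfkbia, the inhibitor of NF-kB that NF-kB itself induces, had 30, 41 and 24 against 8, 9 and 10 (1.04 ± 0.29, adjusted p = 0.0110, but 0.177 without lung CD244+ library 2). Tnfaip3 did not pass, with 33, 44 and 31 against 31, 39 and 30 (-0.50 ± 0.34, adjusted p = 0.453). Nfkbiz, with 7, 15 and 13 against 2, 5 and 1, did not pass either (1.16 ± 0.40, adjusted p = 0.0503), nor did Myd88 and Irak1. Tlr4, the receptor that CD14 serves, had only 0, 1 and 1 molecules in lung CD244+ libraries, too few to be tested.

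Around Csf1r, all 9 tested myeloid regulators and signalling genes of 14 listed rose (median 1.67). Spi1, which encodes PU.1, had 5, 6 and 8 molecules in lung CD244+ libraries and none in any other library (1.83 ± 0.38 SE, limma adjusted p = 0.000262). Tyrobp, the adaptor DAP12, had 17, 25 and 21 against 1, 0 and 0 (3.00 ± 0.40, adjusted p = 5.63e-09), and the kinase gene Syk 7, 8 and 6 against none (1.94 ± 0.39, adjusted p = 9.70e-05). Fcer1g, the Fc receptor gamma chain that NK cells use as well, had 15, 26.25 and 35.25 against 0, 2 and 1 (2.82 ± 0.36, adjusted p = 1.50e-09). It was also higher in thymus CD244+ than in thymus CD244- cells, with 24, 20 and 27 molecules against 4, 1 and 5 (2.27 ± 0.36, adjusted p = 8.06e-06), so it passed the threshold in both tissues. Selenop belongs to the selenoproteins, which carry selenocysteine. Of 14 other selenoprotein genes, 10 were tested and 0 passed with limma, 4 had an unadjusted p under 0.05, and edgeR called 1 of the 3 it could fit (median log2 difference 0.50). With limma, 1 passed without lung CD244+ library 1 and 1 without lung CD244- library 3.

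Beside Cxcl2, all 6 tested genes of 17 listed myeloid chemokines and cytokines rose (median 2.60). Il1b, the inflammatory cytokine interleukin 1 beta, had 42, 19 and 27 molecules in lung CD244+ libraries and none in any other library (3.63 ± 0.39 SE, limma adjusted p = 2.16e-12, at least 18.9-fold). Ccl2, the monocyte attractant, had 23, 14 and 19 and none elsewhere (3.08 ± 0.38, adjusted p = 5.77e-10). Ccl9 had 8, 12 and 21 against none (2.64 ± 0.39, adjusted p = 1.06e-07), and Ccl6 13, 6 and 36 against 0, 1 and 0 (2.56 ± 0.40, adjusted p = 7.13e-07). Il1b and Ccl2 had their highest count in library 1, where the 10 genes had their lowest sum.

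**Figure D3:**
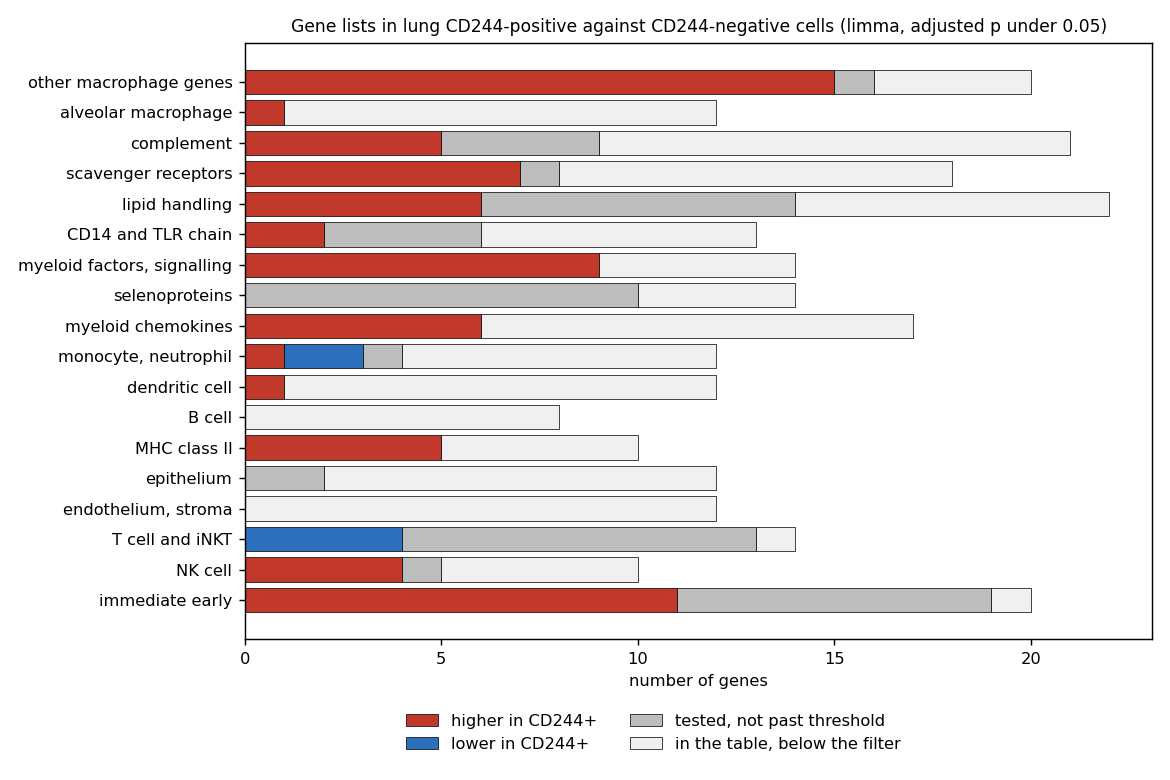
Number of genes (horizontal axis) in each of 18 lists that were higher in lung CD244+ than in lung CD244- cells, lower, tested without passing an adjusted p of 0.05 (limma), or in the table but below the filter on low values. Higher are 15 of 16 tested macrophage genes, 9 of 9 myeloid regulators, 6 of 6 chemokines and 5 of 5 MHC class II genes. Some genes, such as C3ar1, Cd68, Cd163, Lrp1 and Irf8, are shared between lists and counted in each. The T cell and iNKT list has 4 of 13 lower. Over all tested genes, 5.61% were higher and 2.82% lower. Only 16 of the 68 higher list genes passed the filter without the lung CD244+ libraries, so the others had to be high there to be tested.

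Markers of other cells moved with the 10 genes to different degrees, and their part in the result was not tested. MHC class II genes, which present peptides in macrophages, dendritic cells and B cells, were higher for 5 of 5 tested genes of 10 listed. Cd74, the invariant chain, had 84, 120 and 269 molecules in lung CD244+ libraries against 0, 0 and 1 in lung CD244- libraries (5.63 ± 0.39 SE, limma adjusted p = 9.90e-22). The list summed to 50.2, 72.8 and 130 molecules per 10000 in lung CD244+ libraries, a mean of 84.2 ± 40.9 against 0.54 ± 0.18 in lung CD244- cells (SD, n = 3 each). Library 3 was at 1.78 times library 2 (1.55 to 2.04), whereas the sum of the 10 genes was at 0.767 (0.684 to 0.862), so class II RNA and the 10 genes did not peak in the same library. Dendritic cell genes gave 1 tested gene of 12, Cd83, which was higher (11, 29 and 24 against none). Clec9a and Ccr7 were at 0 in all 12 libraries, and the list summed to 4.30, 8.23 and 8.36 per 10000 in lung CD244+ libraries against 0 in lung CD244- libraries. B cell genes had no tested member among 10 listed. Only 8 of these were in the data, which held no Ighm and no Igkc, so immunoglobulin RNA could not be followed. The 8 summed to 0, 1.18 and 0 per 10000 in lung CD244+ libraries, 0.311 to 0.337 in lung CD244- libraries and 0 in thymus. Pax5 was at 0 in all 12 libraries.

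Neutrophil markers S100a8, S100a9, Retnlg, Ngp and Camp had no molecule in any library. In the list of 12 monocyte and neutrophil genes, 4 were tested. F13a1, a transglutaminase of monocytes and tissue macrophages, rose (14, 18 and 19 molecules in lung CD244+ libraries, none in lung CD244- libraries). Ccr2 and Plac8, which T cells express too, fell. Plac8 had 6, 5 and 5 molecules in lung CD244+ libraries against 13, 8 and 14 in lung CD244- libraries (-1.37 ± 0.39 SE, limma adjusted p = 0.0119). It did not pass without lung CD244+ library 3 (0.063), without lung CD244- library 1 (0.0589) or 3 (0.055), or per T cell receptor complex (0.244). Ccr2 had 13, 9 and 16 molecules in lung CD244+ libraries against 23, 22 and 26 (-1.40 ± 0.28 SE, limma adjusted p = 0.000107, but 0.206 per T cell receptor complex). Epithelial genes had 0 of 2 tested genes past the threshold of 12 listed with limma, 0 at an unadjusted p under 0.05 and 0 of 1 with edgeR. They summed to 3.37 ± 2.24 per 10000 in lung CD244+ and 4.04 ± 0.63 in lung CD244- cells (SD, n = 3 each). Of these sums, the tested gene Hopx gave 1.31 in lung CD244+ and 1.61 in lung CD244- cells. Hopx also had 49 molecules in thymus CD244+ and 21 in thymus CD244- libraries, so the sums are not of epithelial RNA alone. Endothelial and stromal genes had no tested member of 12, with sums of 0, 0.47 and 0.194 per 10000 in lung CD244+ libraries and 0.311 to 0.337 in lung CD244- libraries. Cdh5, Cldn5, Col3a1 and Dcn were at 0 in all 12 libraries. The epithelial sums of the lung groups overlapped, unlike those of the 10 genes, which were chosen on this contrast.

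T cell and iNKT genes went the other way in part. Of 14 listed, 13 were tested, 4 fell, 0 rose and 9 did not pass. Cxcr6, on which all cells were sorted, had 15, 1 and 1 molecules in lung CD244+ libraries against 10, 13 and 15 in lung CD244- libraries (-1.89 ± 0.40 SE, limma adjusted p = 0.00163, but 0.189 with edgeR). Thy1 had 13, 3 and 13 against 15, 21 and 31 (-1.72 ± 0.30, adjusted p = 7.08e-06). Il2rb had 26, 23 and 17 against 40, 25 and 27 (-1.02 ± 0.22, adjusted p = 0.000301, but 0.697 per T cell receptor complex). Cd3d, a chain of the T cell receptor complex, had 22, 11 and 12 against 10, 26.67 and 21 (-0.84 ± 0.25, adjusted p = 0.0194). The Cd3d call was lost with only the lung libraries fitted (0.0694), with edgeR (0.137), without lung CD244+ library 2 (0.0969) or 3 (0.152), and without lung CD244- library 2 (0.245) or 3 (0.0779). The list summed to 32.7, 20.0 and 18.1 per 10000 in lung CD244+ libraries 1, 2 and 3, all below the lung CD244- range of 48.5 to 50.2, and library 1 had both the most T cell RNA and the lowest sum of the 10 genes. The 3 libraries are too few for a correlation.

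NK cell genes had 5 tested genes of 10 listed. Klra3 did not pass (limma adjusted p = 0.909). Ncr1 (0, 0 and 1 molecules in lung CD244+ libraries), Eomes (0, 1 and 0), Prf1 (0, 0 and 1), Klra8 (1.25, 0 and 0) and Klra4 (0, 0 and 0) were below the filter. The other 4 tested genes were higher in lung CD244+ cells, namely Gzma, Klra7, Klre1 and Irf8. Irf8 also stands among the myeloid regulators. The count fell to 2 without lung CD244+ library 1, where Klra7 (limma adjusted p = 0.0983) and Klre1 (0.0645) did not pass, and to 2 without library 2, where Irf8 (0.0888) and Klre1 (0.0703) did not. Klra7 did not pass without lung CD244- library 3 either (0.075). Gzma passed in each of these, with 52, 61 and 11 molecules against 2, 1 and 1 (3.01 ± 0.38 SE, limma adjusted p = 1.17e-09). Gzma, which encodes a granzyme of cytotoxic cells, was also higher in thymus CD244+ than in thymus CD244- cells, with 38.25, 36 and 24 molecules against 0, 0 and 3.25 (3.43 ± 0.38, adjusted p = 9.92e-11). Klre1 was higher in thymus CD244+ cells too, with 23, 24 and 20 molecules against 8, 7 and 7 (1.365 ± 0.33 SE, limma adjusted p = 0.0281). Thymus CD244+ libraries held Gzma, Klre1 and Fcer1g RNA, and 9 of the 10 genes had no molecule in either thymus group. Immediate early genes, which cells induce within minutes of a stimulus, were higher for 11 of 19 tested genes of 20 listed. They summed to 91.5 ± 9.94 per 10000 in lung CD244+ cells, 49.5 ± 3.06 in lung CD244- cells, 18.2 ± 1.24 in thymus CD244+ cells and 17.4 ± 0.72 in thymus CD244- cells (SD, n = 3 each). Fos led them, with 44, 41 and 47 molecules in lung CD244+ against 3, 0 and 2 in lung CD244- libraries (3.34 ± 0.40, adjusted p = 1.15e-10).

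**Figure D4:**
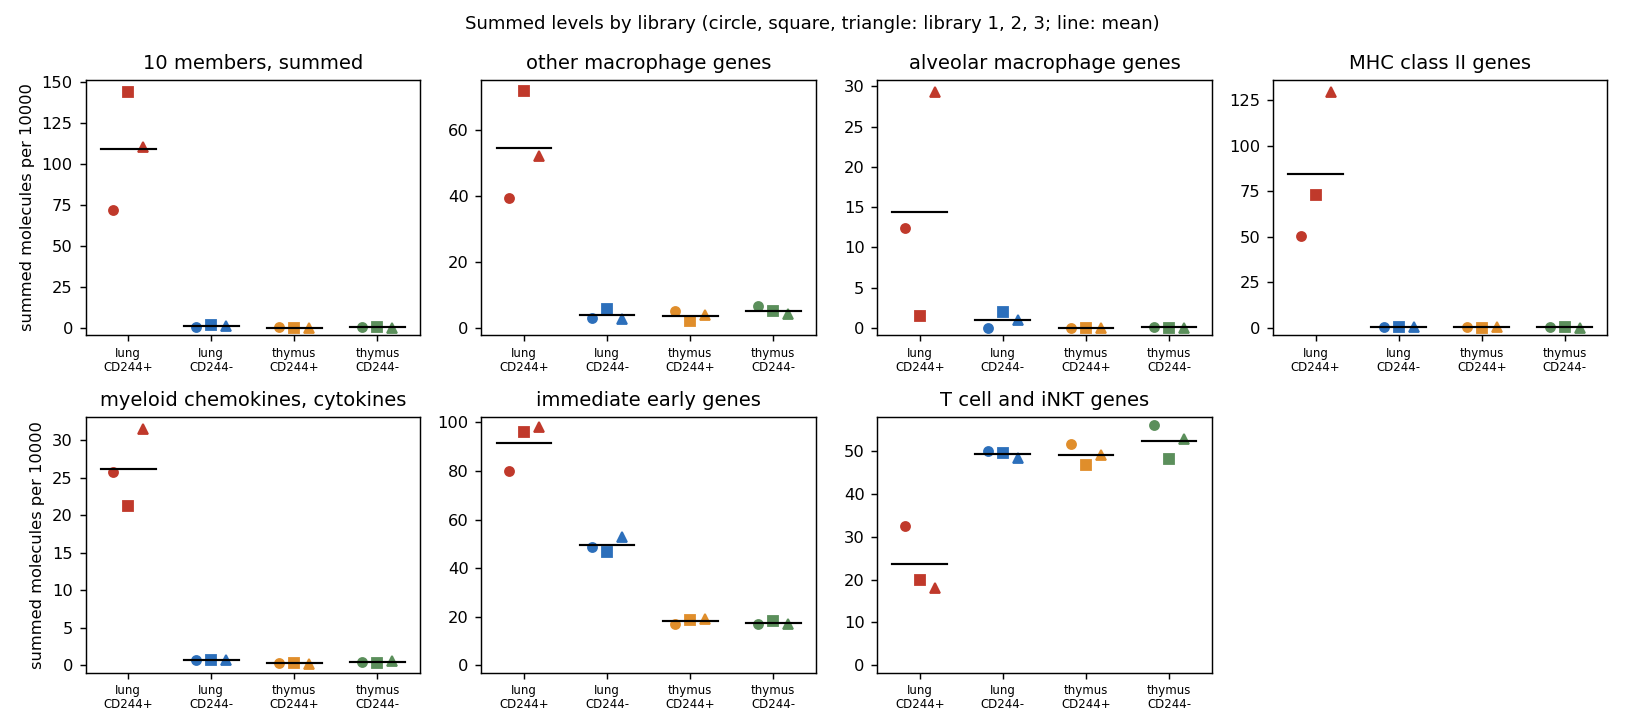
Summed molecules per 10000 (vertical axes, linear, each with its own scale) of the 10 genes and of 6 gene lists in lung CD244+, lung CD244-, thymus CD244+ and thymus CD244- libraries; circle, square and triangle are libraries 1, 2 and 3 and the line is the mean. Macrophage and MHC class II sums are high only in lung CD244+ libraries, immediate early sums are higher in both lung groups than in thymus, and T cell and iNKT sums are lowest in lung CD244+ libraries.

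The kind of macrophage gene also differed between the lung CD244+ libraries. Of 12 alveolar macrophage genes, 10 were detected in library 1, 1 in library 2 and 11 in library 3, while Siglecf, a defining surface lectin of mouse alveolar macrophages, was at 0 in all 12 libraries. Chil3, a chitinase-like protein of alveolar macrophages, had 29, 6 and 79 molecules in lung CD244+ libraries against 0, 3 and 0 in lung CD244- libraries (log2 difference 2.98 ± 0.44 SE, limma adjusted p = 1.40e-07, but 0.0644 with a pseudocount of 5). It was the 1 gene of this list that passed the filter. Ear2, a secreted ribonuclease, had 7.33, 0 and 24.5 molecules, Ear1 4.33, 0 and 13.5, Plet1 5, 0 and 13, and Atp6v0d2, a subunit of the vacuolar proton pump, 6, 0 and 6. Ear1 and Ear2 are close copies, so their division is uncertain. The list summed to 12.4, 1.41 and 29.4 molecules per 10000 in lung CD244+ libraries 1, 2 and 3. In lung CD244- libraries it summed to 0, 1.99 and 0.932, a mean of 0.974 ± 0.996 (SD, n = 3), so the lung groups overlapped through lung CD244+ library 2. Lung CD244+ library 2 was at 0.113 times lung CD244+ library 1 (0.0399 to 0.261), and lung CD244+ library 3 at 20.8 times library 2 (9.34 to 57.6).

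Library 2 was thus nearly without alveolar genes while it had the highest sum of the 10 genes. It was highest for Cx3cr1, the fractalkine receptor (3, 23 and 9 molecules in libraries 1, 2 and 3). The scavenger receptor gene Stab1 was highest there too (3, 19 and 6). Some macrophage genes that are not alveolar peaked elsewhere, with 17, 5 and 4 molecules of Cd163, 18, 13 and 22 of Fcgr3, and 19, 31 and 55 of Ctss. The other macrophage genes summed in library 2 to 1.82 times library 1 (1.51 to 2.19), and in library 3 to 0.729 times library 2 (0.616 to 0.862), the same order as the 10 genes. Lpl, the lipoprotein lipase gene, had 20, 1 and 21 molecules and so followed the alveolar order and not that of Apoe (67, 134 and 123). These genes were picked after their values were seen, and the ratios carry counting error only.

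**Figure D5:**
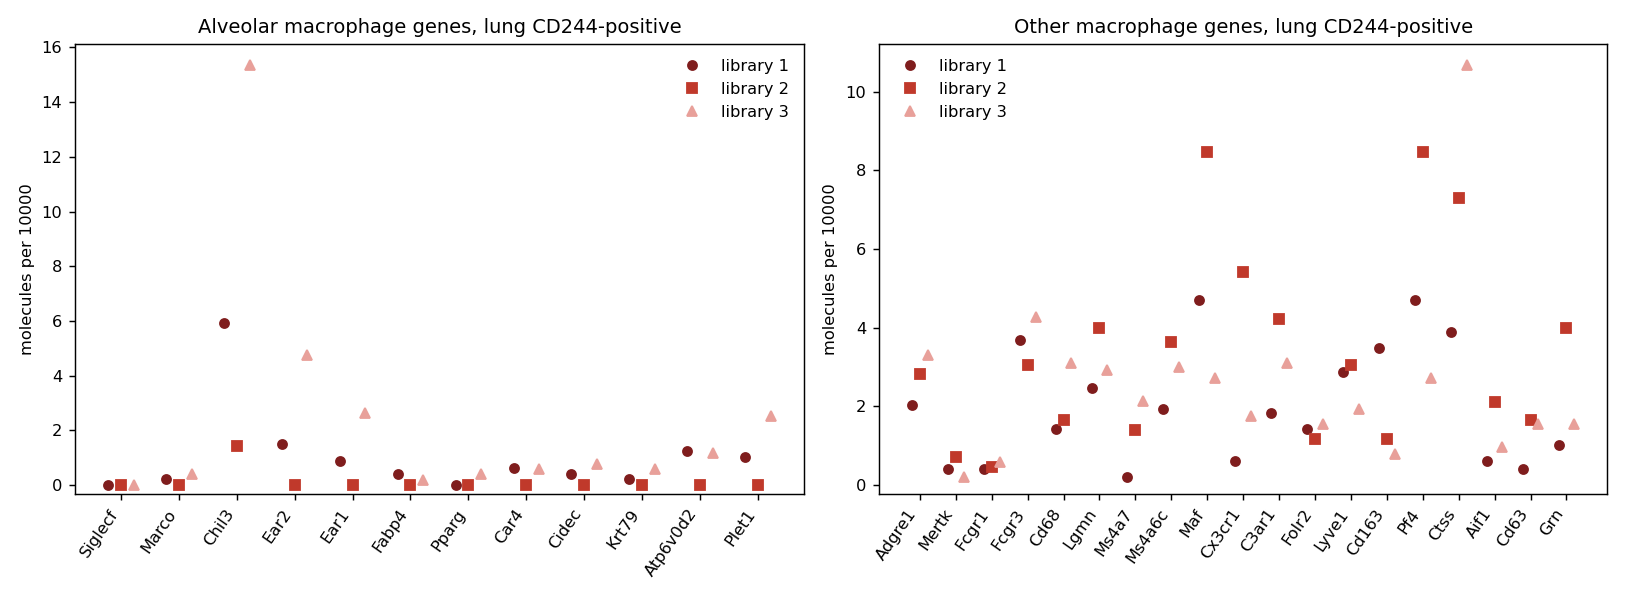
Molecules per 10000 (vertical axes, linear) of alveolar macrophage genes (left) and most of the other macrophage genes listed (right) in lung CD244+ libraries 1, 2 and 3 (circle, square, triangle). On the left library 2 is at 0 for every gene but Chil3. On the right it is the highest for Cx3cr1 and Pf4, but not for Cd163, Fcgr3 or Ctss.

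The genes whose pattern over the 12 libraries was most like the mean of the 10 genes, by Pearson's r of log2 values, were F13a1 and Lgmn (both 0.999), Marcks (0.998), and Spi1, Adgre1, C3ar1, Ly86 and Zfhx3 (all 0.997). Adgre1 encodes the macrophage surface protein F4/80 and had 10, 12 and 17 molecules in lung CD244+ libraries. Marcks, a substrate of protein kinase C, had 16, 32 and 33, Ly86, a partner of the receptor RP105, had 3, 3 and 4, and Zfhx3, a zinc finger and homeobox factor, had 6, 10 and 8. All 8 were at 0 in the other 9 libraries. Of 5128 other tested genes, 129 had r above 0.9. The points fall into lung CD244+ libraries and the rest, so r measures that separation, and it is a description without a test.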

How the data were processed

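RNA of 100 sorted cells per library was measured with molecular barcodes in the oligo-dT primer, template switching and spike-in RNA, per the labels' protocols. STAR and mm10 are named in the submitters' processing notes; versions, annotation, counting and scaling are not given in the sources used here. The deposited table holds the authors' normalized signal, which sums to 19342.9 in each lung and 26890.5 in each thymus column. These are not raw counts. In each column 94.26% to 95.85% of nonzero values were whole multiples of the most frequent value (tolerance 1e-06), so molecules were recovered by dividing by it.

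The labels gave each sample's tissue and CD244 subset. limma 3.58.1 (R 4.3.3, trend and robust) was fitted on log2(value + 1) to the 4 groups in 5138 genes above 1 in at least 3 libraries, so log2 differences understate changes of low genes; p-values were two-sided with Benjamini-Hochberg adjustment over all of them. edgeR 4.0.16 quasi-likelihood ran on whole molecules of the 9 libraries whose smallest step was 1 molecule (1156 genes). The limma fit was run on simulated data, which did not cover changed genes that are absent from 3 of the 4 groups. An exact test of 3 against 3 libraries cannot pass 0.05 and was not used. Counting intervals are exact 95% binomial; folds over 0 use a floor of 3 molecules per group. Named genes were the 10, up to 4 past the threshold per list with the smallest p, markers at 0, and the 8 most alike; others named were chosen after their values were seen, and results for 2 list genes are not reported here. The 10 genes and the lists were chosen with earlier results of these data known. Other settings were quantile normalization, filters, pseudocounts, a replicate block, only the libraries compared, edgeR, each library left out, and, chosen after seeing the data, scaling to the T cell receptor complex.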

Additional observations from a re-analysis of the deposited data

How the results depend on the processing

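No setting could call more than Selenop among the 10 genes in thymus, and none that fitted it did; with only the thymus libraries, none of the 10 was above the filter. Thymus calls over all genes (21) were 36 with only the libraries compared, 13 with edgeR, 8 when scaled to the T cell receptor complex, and 10 to 21 with 1 library left out (10 without CD244- library 2, 11 without CD244+ library 3, 13 without CD244+ library 2 or CD244- library 1). Lung calls (433) were 250 with a filter of 5 in 3 libraries (115 higher, 135 lower), 181 with edgeR, 1350 when scaled to the T cell receptor complex (1320 higher, 30 lower), where the median of all genes moved to 0.61, and 327 to 422 with 1 library left out. List genes called in lung (74) were 33 with the stricter filter, 43 with edgeR, which could fit 66 of them, and 68 to 74 with 1 library left out. The ratio of the summed 10 genes in lung CD244+ over CD244- cells (112) was 246 per T cell receptor complex and 84.2 to 172 with 1 library left out, 172 without CD244- library 2. Of 47 named list genes, 37 kept their call in every setting that could fit them, 10 lost it in some and 0 reversed.

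Same-numbered libraries did not deviate together (correlations of -0.01 to 0.014), so the numbers are not treated as pairs; with a replicate block the counts were 19 in thymus, 428 in lung, 74 list genes and 0 of the 10 genes in thymus, where only Selenop had molecules.

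Depth limits low genes, where few molecules per library separate a low level from none. The deeper lung CD244+ libraries detected 7293 to 7525 genes against 5622 to 5885 in lung CD244- libraries.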
